A study of Rattus norvegicus with 2 samples.

Results

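UDP-glucuronosyltransferases (UGT), glutathione transferases (GST, with the microsomal Mgst enzymes) and sulfotransferases (SULT) were examined in rat liver on a low-fat and a high-fat diet. The members were all probe sets whose single gene symbol in the platform annotation starts with Ugt1, Ugt2, Gst followed by a class letter and a digit, Mgst or Sult. This gave 40 probe sets for 38 genes, out of 15866 probe sets on the array and 12783 with a single gene symbol. There were 7 UGT, 19 GST and 14 SULT probe sets. No probe set carried a single Ugt1 symbol. Liver total RNA of the SD-rat was hybridised to 1 array per diet. The labels give an age of 4 weeks and feeding for 9 weeks. An age of 4 weeks cannot follow 9 weeks of feeding, so the age at liver sampling is unclear. Both foods were AIN93G-based, AIN93G being a standard purified rodent diet, so the low-fat and the high-fat group shared that base. How much fat the foods held, the sex of the animals and how many contributed to each RNA are not stated in the sources used here. Each diet had a single array and so no replicate check, and every difference is between these 2 arrays and has no p-value. The RNA came from whole liver, where fewer cells of a type and less RNA per cell cannot be told apart.

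These enzymes carry out the conjugation step of drug, steroid and bile pigment disposal. UGTs in the endoplasmic reticulum transfer glucuronic acid from UDP-glucuronate, SULTs in the cytosol transfer sulfate from the donor PAPS, and GSTs attach the tripeptide glutathione to electrophiles, after which the products leave the hepatocyte in bile or blood. In rodent liver the families respond to the xenobiotic receptors and to the oxidant-responsive factor Nrf2, and several SULTs and UGTs that act on steroids differ between the sexes.

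The members with the largest differences belong to groups of close relatives. The promoters of Ugt2b, Ugt2b1, Sult1c2a and Sult2a6 are therefore shown for comparison of their sequences. Those of Ugt2b and Ugt2b1 form a pair, and those of Sult1c2a and Sult2a6 each stand beside that of a relative, Sult1c3 or Sult2a1. All are from RefSeq on build GRCr8, running from 250 bases before to 50 bases after the gene's start, 5′ to 3′ on the gene's strand. Ugt2b lies at chr14:20985199-20985498 (+ strand) and Ugt2b1 at chr14:21378632-21378931 (+ strand). Sult1c2a lies at chr9:7103153-7103452 (- strand) and Sult1c3 at chr9:7594207-7594506 (- strand). Sult2a6 lies at chr1:84097759-84098058 (- strand) and Sult2a1 at chr1:84638898-84639197 (- strand). Capitals mark matches, on either strand, to the motifs named after the sequences.
Ugt2b: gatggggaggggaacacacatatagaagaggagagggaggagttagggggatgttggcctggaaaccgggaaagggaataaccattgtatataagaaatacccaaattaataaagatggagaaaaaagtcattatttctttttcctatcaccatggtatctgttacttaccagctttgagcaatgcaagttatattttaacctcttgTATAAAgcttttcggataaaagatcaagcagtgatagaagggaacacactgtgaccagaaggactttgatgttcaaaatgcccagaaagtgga
Ugt2b1: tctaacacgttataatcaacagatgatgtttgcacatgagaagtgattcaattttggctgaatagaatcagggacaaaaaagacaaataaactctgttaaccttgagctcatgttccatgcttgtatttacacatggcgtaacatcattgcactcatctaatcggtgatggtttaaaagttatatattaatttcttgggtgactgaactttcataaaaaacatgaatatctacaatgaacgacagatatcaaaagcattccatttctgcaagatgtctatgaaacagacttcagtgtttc
Sult1c2a: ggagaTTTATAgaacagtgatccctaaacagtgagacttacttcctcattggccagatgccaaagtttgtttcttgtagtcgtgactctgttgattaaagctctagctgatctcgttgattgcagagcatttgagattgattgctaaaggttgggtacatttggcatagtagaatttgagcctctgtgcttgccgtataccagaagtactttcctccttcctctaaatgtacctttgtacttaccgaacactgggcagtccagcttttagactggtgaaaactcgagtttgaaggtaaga
Sult1c3: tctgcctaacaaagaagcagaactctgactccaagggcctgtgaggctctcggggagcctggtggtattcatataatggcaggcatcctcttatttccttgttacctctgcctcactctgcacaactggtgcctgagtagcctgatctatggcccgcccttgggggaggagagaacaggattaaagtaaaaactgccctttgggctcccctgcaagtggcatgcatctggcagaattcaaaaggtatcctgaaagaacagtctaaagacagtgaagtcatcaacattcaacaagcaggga
Sult2a6: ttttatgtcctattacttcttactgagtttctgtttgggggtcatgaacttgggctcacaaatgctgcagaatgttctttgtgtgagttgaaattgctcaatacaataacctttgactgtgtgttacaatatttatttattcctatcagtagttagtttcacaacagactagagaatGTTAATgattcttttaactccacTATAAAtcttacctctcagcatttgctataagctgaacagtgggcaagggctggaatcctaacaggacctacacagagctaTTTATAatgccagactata
Sult2a1: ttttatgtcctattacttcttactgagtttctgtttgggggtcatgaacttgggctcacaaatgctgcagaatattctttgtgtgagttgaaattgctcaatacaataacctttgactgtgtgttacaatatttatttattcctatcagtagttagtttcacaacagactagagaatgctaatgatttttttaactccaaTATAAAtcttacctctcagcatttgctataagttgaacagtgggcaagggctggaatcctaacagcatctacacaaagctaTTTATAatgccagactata

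Promoters were found for 32 of the 38 genes, in 33 windows, and were searched for 4 motifs on both strands, with overlaps between motifs allowed. The antioxidant response element TGACNNNGC, to which Nrf2 binds, matched in 6 of the 33 windows, those of Gsta1, Gsta3, Gstm5, Gstm7, Gstp1 and Gstz1, against 12.1% of 33469 promoter windows of the same length. The xenobiotic response element core GCGTG matched in 7 windows, against 29.7% of all. The HNF1 half-site GTTAAT, part of the site of a hepatocyte factor, matched in 5 windows, belonging to Gsta1, Gsta3, Sult2a2 and Sult2a6, against 7.45%. TATAAA matched in 10, against 14.2%. In the sequences printed, Ugt2b had TATAAA starting 43 bases upstream of the gene's start, and Ugt2b1 had no match to any of the 4 motifs, which says only that these letters are not in the window. In a global alignment, the windows of Ugt2b and Ugt2b1 shared 165 identical bases, 55.0% of 300. Those of Sult1c2a and Sult1c3 shared 50.3%. For comparison, 327 pairs of member windows from different superfamilies shared 40.7% to 56.0%. Ugt2b and Ugt2b15 shared 69.3%. Sult2a6 and Sult2a1 were 97.3% identical, and of this pair the window of Sult2a6 held the HNF1 half-site, 73 bases upstream, and that of Sult2a1 did not.

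Signals are intensities on a linear scale as deposited. The median signal of an array, 15.7 (low-fat) and 14.0 (high-fat), served as its floor, and a probe set was called measured when its mean log2 signal reached the mean of both floors. Ratios are high-fat over low-fat on the log2 scale, centred on the median over 7864 measured probe sets. That median was -0.117 before centring, which is the shift that separates centred from uncentred values below. The brightness of different probe sets is no comparison of transcript levels and is not read as one. Defining hepatocyte markers were bright, with Alb at 9119.2 (low-fat) and 9255.6 (high-fat). All 7 hepatocyte markers with a probe set were between 0.03 and 0.27, with a median of 0.14. All 7 were in the brightest of 10 bins by mean signal, which had a median of 0.05 over all its probe sets. Without centring, with quantile normalization or with loess some of them were below 0, and with a pseudocount of 50 Apoa1 was at -0.03. The kidney markers Umod, Slc12a1 and Aqp2 were at 3.2 or less on both arrays, and intestine, pancreas and adipocyte lists had 1 measured member each. Of other liver cell types, the Kupffer cell markers Cd68 and Clec4f were at 0.18 and -0.21, and the endothelial markers Kdr and Lyve1 at -0.03 and -0.39. Of 4 stellate cell markers 2 were measured, Lrat at -0.28 and Col1a2 at -1.06 on its brighter probe set and 0.07 on the other. Lrat was near the floors, at 21.1 (low-fat) and 16.0 (high-fat). The summed signal of the 4 stellate cell markers, uncentred and with the brighter Col1a2 probe set, went from 72.1 (low-fat) to 45.6 (high-fat). That Col1a2 probe set alone went from 29.9 (low-fat) to 13.2 (high-fat), below the high-fat floor, and Des and Acta2 were below both floors. The part of any of these liver cell types in the members' ratios was not tested.

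Of the 40 members, 29 were above both floors, from 28 genes, and 11 were below both. Among the 29, 18 had a higher and 11 a lower centred ratio on the high-fat array, and the median was 0.09, and an order-statistic interval across members, at a level of at least 95%, ran from -0.06 to 0.24. Without centring 13 were higher and 16 lower, and the median was -0.03. At least 2-fold higher were 2 members, Sult1c2a and a probe set of Ugt2b, where 0.776% of all measured probe sets were. At least 2-fold lower was 1 member, Ugt2b1, where 0.903% were. The Ugt2b probe set was below 2-fold without centring, at 0.96, and with a pseudocount of 50, at 0.58, and Ugt2b1 was below it with that pseudocount, at -0.84. In all, 10.3% of the 29 members and 1.68% of all measured probe sets were past 2-fold, a share that rests on 3 probe sets. At 1.5-fold the count was 3 higher, with Sult2a6 added, against a background of 4.29%, and 1 lower against 5.52%. The combined share at 1.5-fold was 13.8% of members and 9.8% of all probe sets. In the brighter 5 of 10 signal bins, which held 27 of the 29 members, 11.1% of members and 0.814% of all probe sets were past 2-fold in either direction. Past 1.5-fold there were 14.8% of members and 5.29% of all. These shares rest on 3 and 4 probe sets.

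**Figure D1:**
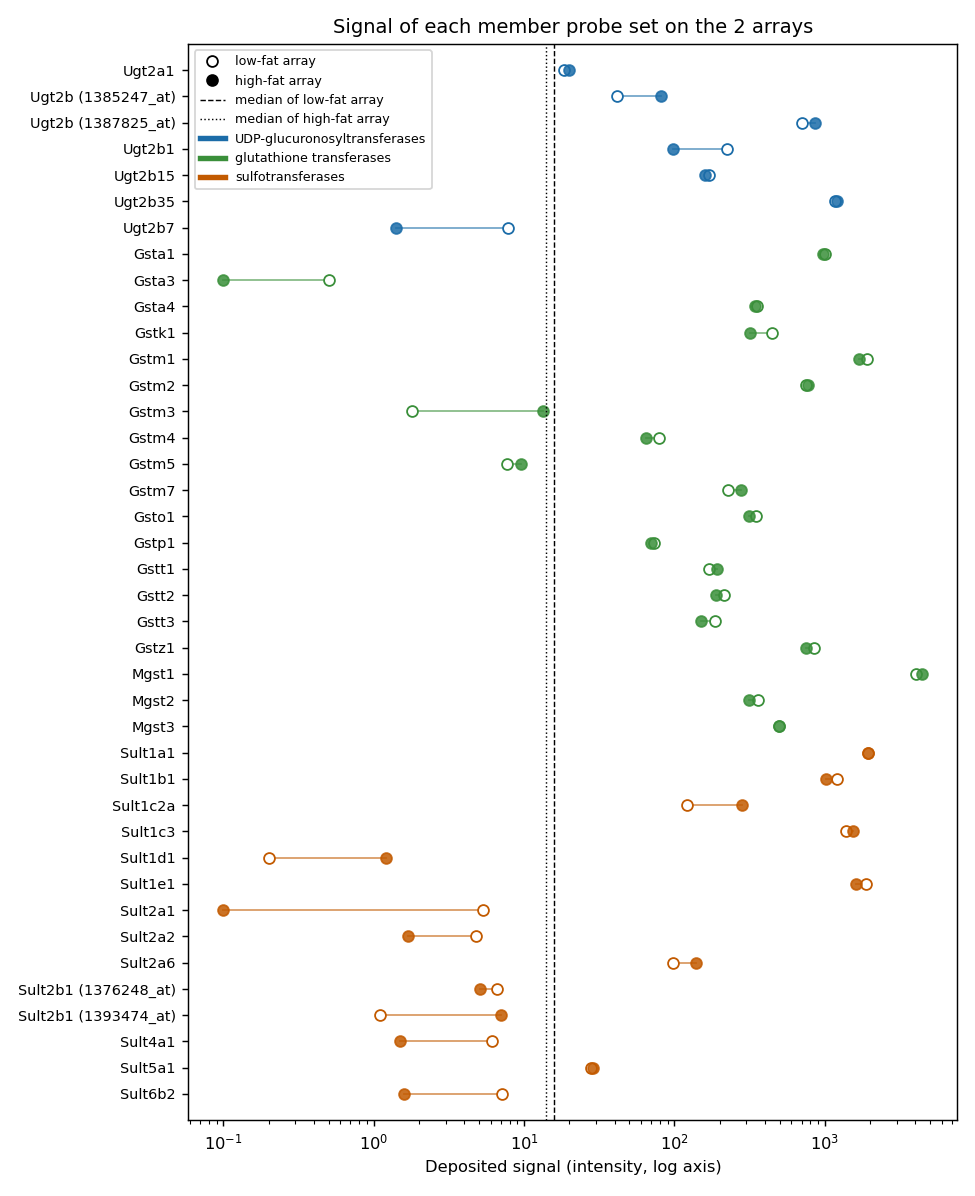
Deposited signal of each member probe set on a log axis, with an open circle for the low-fat array, a filled circle for the high-fat array and a line joining them. The dashed and dotted lines are the array medians of 15.7 and 14.0, and 29 probe sets lie to the right of both and 11 to the left.

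The spread among probe sets of like signal gives a scale for single members. Its robust SD, taken from the median absolute deviation of the log2 ratio, was 0.49 in the dimmest of 10 signal bins and 0.17 in the brightest. This is a spread between genes on these 2 arrays and not between animals. It was taken about the median of each bin, which was 0.05 in the brightest, whereas members are set against 0. Of the 29 members, 19 lay within 1 such SD of 0 in their own bin and 23 within 2. Those 19 comprised 12 of 16 GST, 4 of 7 SULT and 3 of 6 UGT probe sets. The share of all measured probe sets within these limits was not computed, so the counts are not read as a trait of the members.

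**Figure D2:**
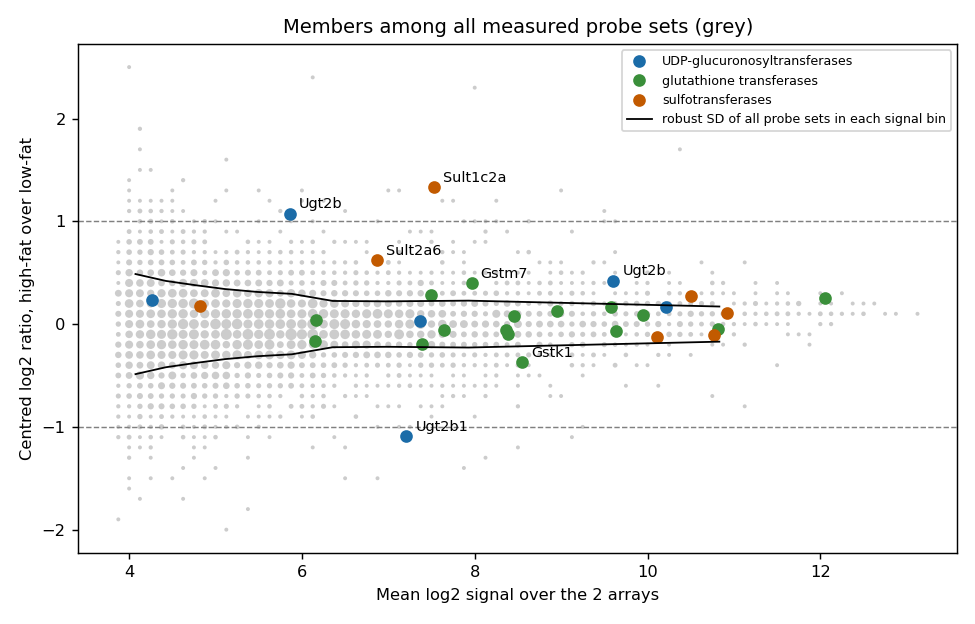
Centred high-fat over low-fat log2 ratio against mean log2 signal, with all 7864 measured probe sets as grey points whose size grows with their number, members in colour and the robust SD of each signal bin as black lines. Sult1c2a, 1 Ugt2b probe set and Ugt2b1 lie beyond the dashed 2-fold lines, while most GSTs lie between the black lines.

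The UGT2 enzymes went both ways. Ugt2b1, a steroid and xenobiotic UGT of rat liver that also takes morphine, had a signal of 224.9 (low-fat) and 97.5 (high-fat). This was 2.13-fold lower after centring, a log2 ratio of -1.09, and 1 of the 786 probe sets in its signal bin was lower still. Ugt2b, annotated also as Ugt2b2, the androsterone UGT, had 2 probe sets. The first had signals of 700.2 (low-fat) and 864.9 (high-fat), a ratio of 0.42, and 42 of 787 in its bin were higher. The second had 41.6 and 80.8, a ratio of 1.07 or 2.11-fold, and 5 of 786 in its bin were higher. Both probe sets of Ugt2b were thus higher on the high-fat array, but their ratios differed by 0.65, which is more than the SD of 0.42 found for such differences among 696 genes with 2 or more measured probe sets. In those genes 56.9% of pairs had the same sign.

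The other UGT2 members differed little. Ugt2b35 had signals of 1166.2 (low-fat) and 1203.1 (high-fat), a ratio of 0.16. Ugt2b15 had 169.8 and 160.3, a ratio of 0.03 that was -0.08 without centring. Ugt2a1, known from the olfactory epithelium, was near the floors at 18.4 and 20.0, and its ratio of 0.24 was inside the SD of 0.42 in its bin. Over the 6 measured UGT probe sets 5 were higher and 1 lower, the median was 0.20 and the members ran from -1.09 to 1.07. Without centring 4 were higher and 2 lower. Ugt2b7 was below both floors, at 7.8 and 1.4. UGT2B genes are alike in sequence, the reference table lists the older name Ugt2b17 for both Ugt2b1 and Ugt2b15, and it is uncertain which of these genes each probe set reads.

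**Figure D3:**
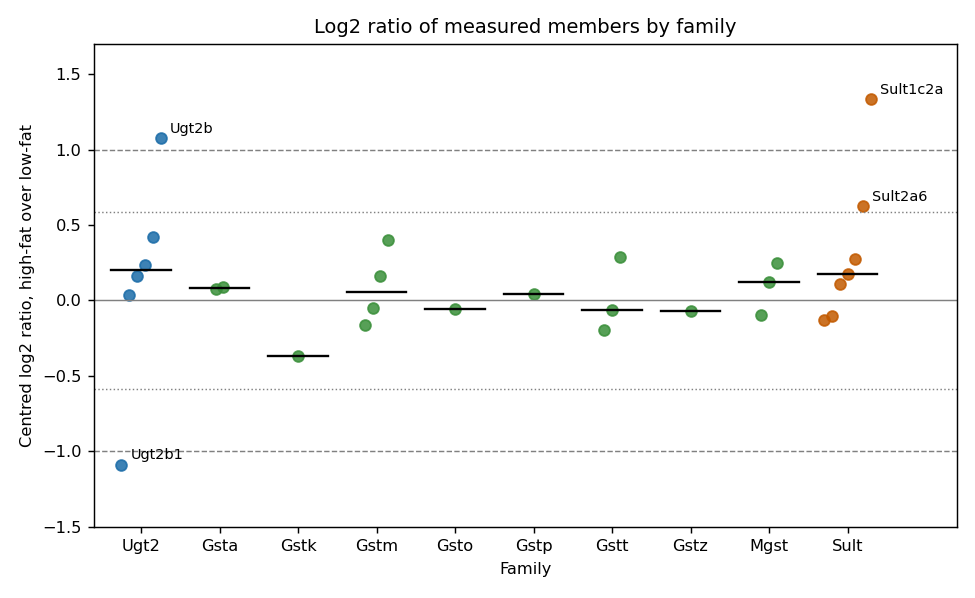
Centred high-fat over low-fat log2 ratio of each measured member by family, with a black bar at the family median, dashed lines at 2-fold and dotted lines at 1.5-fold. Every GST and Mgst point lies between the dotted lines, while the Ugt2 family runs from -1.09 to 1.07 and the Sult family from -0.13 to 1.33.

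Glutathione transferases stayed close to the centre of the array. Of 16 measured members, 8 were higher and 8 lower, with 0 past 1.5-fold in either direction. All 16 lay in the brighter 5 of 10 signal bins, where 5.29% of all probe sets were past 1.5-fold. A count of 0 among 16 is near that share. The median of the GST members was -0.004 and the interval across members ran from -0.10 to 0.16, with single values between -0.37 and 0.40. Without centring 5 were higher and 11 lower, and the median was -0.12.

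Alpha-class GSTs, abundant hepatic enzymes with peroxidase activity toward lipid hydroperoxides, had 2 measured members. Gsta1 had signals of 998.7 (low-fat) and 977.9 (high-fat), a ratio of 0.09. Gsta4, which conjugates the lipid peroxidation product 4-hydroxynonenal, had 354.9 and 345.6, a ratio of 0.08. Both signs turned without centring, to -0.03 and -0.04, and Gsta1 also did so with quantile normalization.

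The mu class, which acts on epoxides and quinones, was split. Gstm7 had the highest ratio of the GSTs, from signals of 226.4 (low-fat) and 275.4 (high-fat), a ratio of 0.40 that 47 of 786 probe sets in its bin exceeded. Gstm2 had 751.0 and 776.4, a ratio of 0.16. Gstm1 was on the lower side at 1904.8 and 1695.2, a ratio of -0.05, and Gstm4 at 78.4 and 64.7, a ratio of -0.16. The signs of these 4 members were the same under the 4 other scalings run, which were no centring, quantile normalization, loess and a pseudocount of 50.

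Theta-class members also went both ways. Gstt1 had signals of 170.4 (low-fat) and 191.5 (high-fat), a ratio of 0.29. Gstt2 had 212.8 and 188.2, a ratio of -0.06. Gstt3 had 186.5 and 150.1, a ratio of -0.20. Of the 3, Gstt1 alone lay outside the bin SD of 0.23.

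Single members represented the other soluble classes. Gstk1, the kappa-class enzyme of mitochondria and peroxisomes, had the lowest ratio of the GSTs, from signals of 443.0 (low-fat) and 316.0 (high-fat). The ratio was -0.37, and 20 of 787 probe sets in its bin were lower. This was beyond 2 robust SD of that bin, as no other measured GST was. Gsto1, the omega-class thioltransferase, had 350.8 and 311.0, a ratio of -0.06. Gstz1, the maleylacetoacetate isomerase of tyrosine breakdown, had 851.9 and 747.2, a ratio of -0.07. Gstp1, the pi-class enzyme that marks preneoplastic foci in rat liver, had 73.4 and 69.7, a ratio of 0.04 that was -0.07 without centring.

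The microsomal Mgst enzymes are membrane proteins unrelated in fold to the soluble classes. Mgst1, found in the endoplasmic reticulum and the outer mitochondrial membrane, had signals of 4068.8 (low-fat) and 4462.2 (high-fat), a ratio of 0.25. Mgst3 had 493.2 and 495.6, a ratio of 0.12, and Mgst2, which can make leukotriene C4, had 361.2 and 311.3, a ratio of -0.10. With the loess alternative Mgst1 was at 0.13.

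The sulfotransferases held the member with the highest ratio. Sult1c2a had a signal of 120.9 (low-fat) and 280.9 (high-fat), 2.52-fold higher after centring and 2.32-fold before. Its log2 ratio was 1.33, and 1 of 786 probe sets in its bin was higher. Its relative Sult1c3, which activates aromatic hydroxylamines, had 1379.6 and 1537.5, a ratio of 0.27. The reference table gives the older name Sult1c1 to both genes, and whether their probe sets tell the genes apart was not tested.

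The other members of the SULT1 family were close to 0. Sult1a1, the phenol sulfotransferase, had signals of 1941.7 (low-fat) and 1930.3 (high-fat), a ratio of 0.11 that was -0.01 without centring. Sult1b1, which acts on thyroid hormones, had 1199.3 and 1010.7, a ratio of -0.13. Sult1e1, the estrogen sulfotransferase, had 1880.1 and 1614.2, a ratio of -0.10. Sult1a1, Sult1b1 and Sult1e1 were thus each less than the bin SD of 0.17 away from 0, although the median of that bin was 0.05.

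Sult2a6, a hydroxysteroid sulfotransferase of the group that acts on DHEA and bile acids, had signals of 97.7 (low-fat) and 138.9 (high-fat). It was 1.54-fold higher, a ratio of 0.62, and 14 of 786 probe sets in its bin were higher. The ratio was below 1.5-fold without centring, at 0.51, and with a pseudocount of 50, at 0.42. Sult5a1 was near the floors at 27.7 and 28.8, a ratio of 0.17. Of the 7 measured SULT probe sets 5 were higher and 2 lower, the median was 0.17 and the interval across members was -0.13 to 1.33, which is their whole range. Without centring 4 were higher and 3 lower.

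The 11 members below both floors were Gsta3, Gstm3, Gstm5, Ugt2b7, Sult1d1, Sult2a1, Sult2a2, Sult4a1, Sult6b2 and both probe sets of Sult2b1. Their signals were 0.2 to 7.8 on the low-fat and 0.1 to 13.3 on the high-fat array, so no fold is given. Gstm3 came nearest to a floor, at 1.8 (low-fat) and 13.3 (high-fat). Sult2a1 and Sult2a2 had 5.3 and 4.8 on the low-fat array, and 0.1 and 1.7 on the high-fat array. Sult4a1, known as a brain sulfotransferase, had 6.1 and 1.5. Of the 5 SULT2 probe sets that of Sult2a6 was the one measured. Whether the probe sets of Sult2a6, Sult2a1 and Sult2a2 tell these genes apart was not tested.

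Members that lie next to each other in the genome were in part on the same and in part on opposite sides of 0. In the gene order of the reference table, Sult1d1, Sult1b1, Ugt2a1, Ugt2b, Ugt2b15, Ugt2b35, Ugt2b7 and Ugt2b1 follow each other with 0 to 2 other protein-coding genes between successive members. Along this row the measured ratios were -0.13 for Sult1b1, 0.24 for Ugt2a1, 0.42 for the brighter Ugt2b probe set, 0.03 for Ugt2b15, 0.16 for Ugt2b35 and -1.09 for Ugt2b1. Ugt2b1, at the end of the row, was the one measured UGT2 gene of this row with a negative centred ratio, although Ugt2b15 was also negative without centring and with the pseudocount. In the mu-class row Gstm7, Gstm2, Gstm1 and Gstm4 followed in that order with 0.40, 0.16, -0.05 and -0.16, and Gstm3 and Gstm5 were below the floors. Sult1c2a and Sult1c3, with 6 other protein-coding genes between them, were at 1.33 and 0.27.

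**Figure D4:**
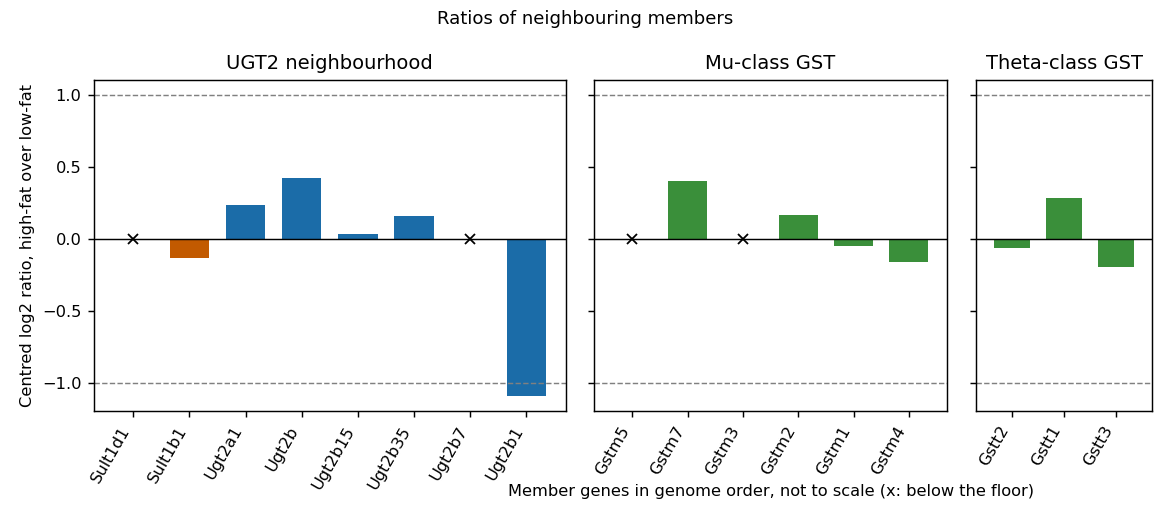
Centred high-fat over low-fat log2 ratio of member genes in genome order, not to scale, for the UGT2 row with adjacent SULT1 genes, the mu-class and the theta-class GSTs. Bars use the brighter probe set of a gene, a cross marks a gene below the floor, and the bar of Ugt2b1 at -1.09 is the one that passes a dashed 2-fold line.

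Genes listed around the donors of the conjugation reactions, not all of which make a donor, showed small differences. The lists hold 1 probe set per gene, that with the highest mean signal, and of 6012 measured genes 4.22% were past 1.5-fold on the higher side and 5.44% on the lower. For UDP-glucuronate, Ugp2 and Ugdh, which make it from glucose 1-phosphate, were at -0.04 and 0.11. Of genes around PAPS, 3 were measured, with the synthetase gene Papss2 at -0.06, the transporter gene Slc35b2 at -0.26 and the nucleotidase gene Bpnt1 at 0.13. Of these, Papss2 alone encodes an enzyme that makes PAPS. Slc35b2 was near the floors, at 23.7 (low-fat) and 18.2 (high-fat). For glutathione, 1 of 5 measured genes was higher and 4 lower, with a median of -0.11. Gclm, the modifier subunit of the rate-limiting ligase, was at 0.28, while its catalytic subunit gene Gclc was at -0.08, Gss at -0.18, Oplah at -0.18 and Gsr at -0.11. None of these 10 genes was past 1.5-fold, and Ugdh was at -0.002 without centring.

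Regulators of these families had 6 measured of 11 listed genes, split evenly by sign, with a median of -0.01. Nr1i2, the pregnane X receptor, had signals of 206.8 (low-fat) and 122.8 (high-fat), 1.55-fold lower at -0.64, and 13 of 786 probe sets in its bin were lower. With a pseudocount of 50 Nr1i2 was below 1.5-fold, at -0.51. Nfe2l2, which encodes Nrf2, had 94.2 and 115.2, a ratio of 0.41. Rxra, the partner of many nuclear receptors, was near the floors at 26.4 (low-fat) and 17.8 (high-fat), a ratio of -0.45. In its bin 127 of 786 probe sets were lower than Rxra, and with a pseudocount of 50 Rxra was at -0.11. Nr1i3, the constitutive androstane receptor, was at -0.07, and Hnf4a at 0.15 and, on its dimmer probe set, -0.02. Ahr, Arnt, Ppara and Esr1 were not measured. The repressor gene Keap1 had a ratio of 0.05 and, on a probe set near the floors at 24.1 (low-fat) and 18.7 (high-fat), of -0.25.

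Other targets of Nrf2 had 6 measured of 6 listed genes, 3 higher and 3 lower, with 0 past 1.5-fold and a median of 0.01. Nqo1, a quinone reductase, was at 0.32, and Akr7a3, an aldehyde reductase, at -0.41. Hmox1 and Ephx1, the microsomal epoxide hydrolase, were at -0.002 and 0.02, with signs that turned with the scaling. Among enzymes of other conjugations Inmt, a methyltransferase, was 1.78-fold lower, from 95.1 to 49.4, and Nat1, an arylamine acetyltransferase, was 1.52-fold higher, from 41.4 to 57.9, with 0.31 on the dimmer of its probe sets. Nat1 was below 1.5-fold without centring, at 0.48, and with a pseudocount of 50, at 0.30, and Inmt was below it with the pseudocount, at -0.48. Baat, which joins bile acids to amino acids, was at 0.27 and Tpmt at -0.11. Nat2, near the floors at 18.0 (low-fat) and 14.6 (high-fat), was at -0.18. The bile export pump for conjugates Abcc2 was at -0.16 and Abcc6 at 0.09. Of enzymes that split conjugates, Gusb was at -0.13 and Sts at -0.13. The sulfatase genes Arsa and Arsb, listed with them, were at -0.37 and 0.11 and are not read as splitting these conjugates.

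Genes that differ between the sexes in rat liver were read because several SULTs do. All 8 were measured, 7 higher and 1 lower, with a median of 0.17. The male-biased genes Cyp2c11, Cyp2c13 and Cyp3a2 were at 0.02, 0.19 and 0.29, and Obp3, an alpha-2u-globulin, went from 591.6 to 830.8, a ratio of 0.61 that was 0.62 on a second probe set. Both Obp3 probe sets were below 1.5-fold under all 4 other scalings, at 0.49 to 0.56 on the first and 0.50 to 0.58 on the second. The female-biased gene Cyp2c12 went from 365.4 to 209.4, a ratio of -0.69, while Cyp2c7 and Cyp2a1 were at 0.22 and 0.005. Hsd3b5 was at 0.15. The signs of Cyp2c11 and Cyp2a1 turned under all 4 other scalings. Beside these, the 7 measured SULT probe sets ran from -0.13 to 1.33, with 5 higher and 2 lower. Whether a sex-linked difference between the RNA samples takes part in any member's ratio was not tested.

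**Figure D5:**
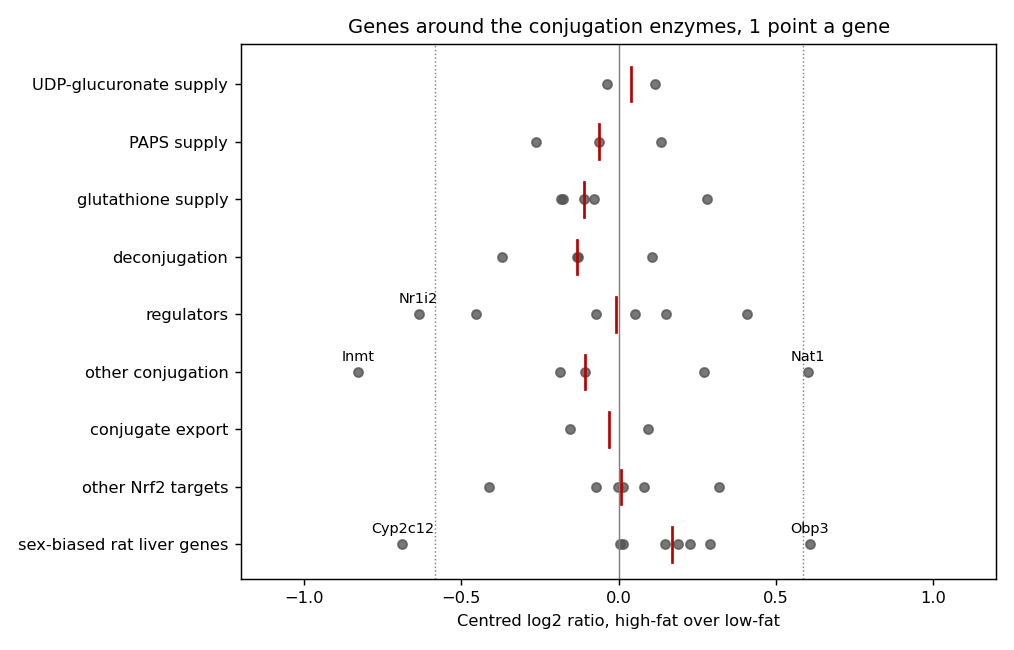
Centred high-fat over low-fat log2 ratio of measured genes in 9 lists around the conjugation enzymes, 1 point per gene, with a red bar at each list's median and dotted lines at 1.5-fold. Nr1i2, Inmt and Cyp2c12 lie beyond the lower dotted line and Nat1 and Obp3 beyond the upper.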

How the data were processed

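The deposited values are linear-scale intensities, as read from their range, with 1 per probe set in each column, and how the authors made it from the scans is not given in the sources used here. From 15923 probe sets 57 controls were removed, leaving 15866. The platform annotation gives a single symbol to 12783 of these and several to 312, and 2771 are unnamed here. Diets were taken from sample titles. After removal of 4 probe sets with a 0, log2 ratios were taken without pseudocount and centred on the median of the 7864 measured probe sets. With 1 array per diet no test was made. The number of arrays limits the precision.

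Members, gene lists, floors and the 10 alternatives were chosen with earlier results of these data known. Every measured member could be named. Members below the floor were given by count and range, and listed genes by their 2 highest, 2 lowest and any past 1.5-fold. Some further listed genes and members below the floor were named after their values were seen. No protein table was used, so protein identity between members was not computed. RefSeq promoters were aligned globally (match 2, mismatch -1, gap opening -5, gap extension -0.5). The steps were tested on simulated data with planted changes larger than the ratio of any measured member. That test does not cover ratios of the size reported here. Python 3.11.15, numpy 2.4.6, pandas 2.3.3, statsmodels 0.14.6, scipy 1.17.1, biopython 1.88 and matplotlib 3.10.9 were used.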

Additional observations from a re-analysis of the deposited data

How the results depend on the processing

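With 1 array per diet, no alternative measures the spread between animals, and probe sets near the floor carry the least precision. Sult1c2a, both Ugt2b probe sets, Ugt2b1 and Sult2a6 kept their direction without centring, with quantile normalization, with loess and with a pseudocount of 50. Leaving out centring moves every ratio by -0.117, so it could not turn the sign of ratios of this size. Sult1c2a ranged from 1.02 to 1.33, Ugt2b1 from -1.21 to -0.84, the dimmer Ugt2b probe set from 0.58 to 1.10 and Sult2a6 from 0.42 to 0.62. The sign of 5 measured members, Gsta1, Gsta4, Gstp1, Sult1a1 and Ugt2b15, turned under at least 1 of these 4. The count at least 2-fold higher, 2 as reported, was 1 without centring, with a pseudocount of 50, with 1 probe set per gene and with probe sets of a gene combined by median. In the last pair of settings the cause is that the dimmer Ugt2b probe set is dropped or averaged. With no floor, which lets in the 11 dim members, the counts were 5 higher and 7 lower at 2-fold, and 6 higher and 7 lower at 1.5-fold. With a pseudocount of 50 the counts were 0 at least 2-fold lower and 1 at least 1.5-fold higher, as a constant added to both signals pulls uncentred ratios toward 0. The median of the GST members was -0.12 without centring. That of the mu class, 0.06 as reported, was 0.30 with the floor at the 25th percentile, which lets in Gstm3, and 0.31 with no floor. The remaining 157 of 170 recomputed counts and medians stayed within 1.5 times the reported count or within the interval across members. For families under 6 members the limit was the robust SD of their signal bins. Much of this was fixed in advance. Leaving out probe sets ending in _s_at, _x_at or _a_at removed no measured member, and Ugt2b alone had 2 measured probe sets. UGT and Ugt2 are the same probe sets, and the UGT and SULT intervals are their whole ranges. No paired analysis was possible because there is 1 array per diet and the values come from no test.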

Other observations

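The 3 probe sets annotated to several members each fell outside the single-symbol rule and are given as values of the probe set, with no gene assigned. The 2 probe sets that list 8 symbols of the UGT1 family, whose transcripts share their last exons, had signals of 928.2 and 664.7 on the low-fat and the high-fat array for the first, a ratio of -0.37, and of 579.5 and 528.7 for the second, a ratio of -0.02. In the brightest bin 23 of 787 probe sets were lower than the first and 269 lower than the second. Both stayed on the lower side under the 4 other scalings. The probe set that lists 2 alpha-class GST symbols had 1554.1 and 1587.4, a ratio of 0.15, close to the 0.09 and 0.08 of Gsta1 and Gsta4.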
